A study of Drosophila melanogaster with 4 samples.

Results

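Rhodopsin maturation and retinoid metabolism are represented here by 9 genes of the 13929 in the counts table. They were chosen by name, as chaperones of rhodopsin and as genes for the uptake and conversion of carotenoids and retinoids. With them stands rtp, whose protein binds the myosin NINAC. All 9 symbols matched a FlyBase identifier in the table. Fly rhodopsin is an opsin protein that carries 3-hydroxyretinal, a form of vitamin A that the fly makes from dietary carotenoids. Opsin folds in the endoplasmic reticulum of the photoreceptor with the help of chaperones and leaves for the rhabdomere, the light-sensing membrane stack, only when the chromophore is bound. Flies that lack a step of either branch have little rhodopsin, and several of these genes carry the name nina, for neither inactivation nor afterpotential, after the electrical defect by which such mutants were found.

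Nuclear RNA was sequenced from outer photoreceptors of male flies aged to Day 30 and collected at Zeitgeber time 6. Both groups carried UAS-Dcr-2.D, which strengthens RNAi, w[1118], ry[506], the rh1-GAL4 driver and UAS-GFP-Msp300KASH, which puts GFP on the envelope of the nucleus so that tagged nuclei can be captured (nuclei immuno-enrichment, NIE). Flies labelled siTop3β also carried the RNAi construct TRiP.JF01282 against Top3β, a DNA/RNA topoisomerase, and siControl flies carried UAS-mCherry-RNAi, a control construct whose target is absent from flies. Each group had 2 libraries and a single RNAi line, each library pooled many flies, and rh1-GAL4 drives expression in R1-R6, so RNA of other head cells is not what the capture selects. The comparison asks which genes change in aged photoreceptors when Top3β is depleted.

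Library totals ran from 3239201 to 4267208 counts, so that 3 counts were worth between 0.703 and 0.926 CPM (counts scaled to a common library size, here before TMM normalization). The library labelled siTop3β replicate 1 had the smallest total and counts on 12922 genes, against 10104 to 10537 in the other libraries. Top3β itself had 57 and 71 counts in the libraries labelled siTop3β and 70 and 57 in siControl, with a log2 fold change between the groups of 0.13 (SE, the standard error, of 0.25, edgeR-adjusted p = 0.957). An edgeR-adjusted p is that of the quasi-likelihood test, adjusted over all genes tested. The target transcript was thus not lower in this nuclear RNA, and every direction below rests on the labels. The paper reports a strong reduction of Top3β transcript by qPCR, measured in larvae with ubiquitous RNAi rather than in these nuclei. The 11 photoreceptor markers summed to between 61760 and 68524 CPM in the libraries labelled siTop3β and between 69782 and 71087 CPM in siControl. The 7 pigment and cone cell markers summed to between 61.9 and 88.8 CPM in siTop3β and between 72.9 and 85.0 CPM in siControl. The 6 glial markers summed to between 138.4 and 163.1 CPM in siTop3β and between 164.5 and 177.2 CPM in siControl, and the 5 markers of other neurons to between 120.2 and 139.6 CPM in siTop3β and between 152.5 and 159.5 CPM in siControl. No marker of these lists was at 0 in every library, and their part in the results on the 9 genes was not tested. In such bulk samples, fewer cells of a type and less RNA per cell cannot be told apart.

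The 9 genes differed far more from each other than between the groups. Their summed counts made up 0.110% and 0.131% of the libraries labelled siTop3β and 0.138% and 0.125% of the siControl libraries. Of the 9, 8 passed edgeR's filter on low counts, and 0 of the 8 were called at an adjusted p under 0.05, where 1.21% of the 7029 genes tested were called. At an unadjusted p under 0.05 there were 2 of the 8, ninaD and santa-maria, both lower, where 5.43% of all tested genes were lower at that level and 9.09% passed in either direction. The DESeq2 Wald test called 0 of the 7 members for which it gave an adjusted p, and 0 of the 9 had an unadjusted p under 0.05 in it. Both libraries labelled siTop3β were below both siControl libraries for 4 of the 8 genes, an outcome seen in 19.0% of all tested genes, and above both for 0 of the 8, an outcome seen in 19.6%. The median log2 fold change of the 8 was -0.18, with a range from -1.09 to 0.08, beside a median of 0.02 over all tested genes. The 11 photoreceptor markers had a median of -0.14, with 9 below 0, where 46.5% of all tested genes were below 0. For 5 of the 11, both siTop3β libraries were below both siControl libraries. Replicates are samples that the labels number, and p-values measure only the spread between these pools of flies. The labels do not say whether that spread is biological or technical. The paper's methods describe the replicates of its high-throughput experiments as independent biological ones, but in a larger number than each group has here.

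**Figure D1:**
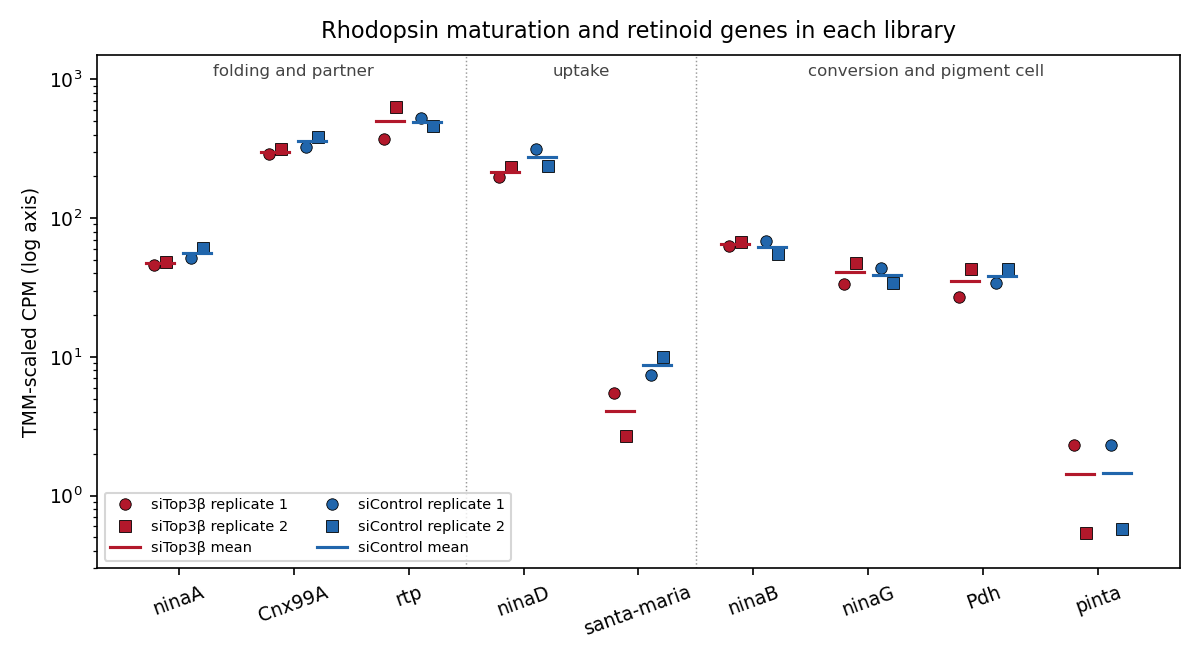
TMM-scaled CPM (log axis) of the 9 genes in each library, with siTop3β (red) left of siControl (blue), circles for replicate 1, squares for replicate 2 and bars for group means. The groups overlap or lie close together except for santa-maria, whose siTop3β libraries had 5.51 and 2.67 CPM and whose siControl libraries had 7.43 and 10.0 CPM.

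Among the genes that act on the opsin protein, ninaA and Cnx99A were somewhat lower in the libraries labelled siTop3β without passing the test. ninaA (FBgn0002936) encodes an eye-specific cyclophilin, a peptidyl-prolyl isomerase that travels with Rh1 through the secretory pathway, and its mutants retain Rh1 in the endoplasmic reticulum. It lies on chromosome 2L from 877302 to 878270 (dm6), with 2 exons in 0.97 kb. It had 159 and 182 counts in the libraries labelled siTop3β and 221 and 212 in siControl, or 46.1 and 48.6 CPM in siTop3β against 51.3 and 60.7 CPM in siControl. The groups did not overlap, but the siControl libraries were further from each other than the nearest libraries of the 2 groups were. The log2 fold change was -0.24 (SE 0.17, 95% interval from -0.59 to 0.11, edgeR-adjusted p = 0.766), so that the level in siTop3β lay between 66.4% and 108.3% of siControl.

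Another gene lies over ninaA. All 871 of the exonic bases of ninaA also lie in an exon of CG15824 on the opposite strand, a gene that had 46 and 24 counts in the libraries labelled siTop3β and 17 and 17 in siControl. The sources used here do not say whether the counting used strand. Of 71 protein-coding genes whose exons are wholly covered on the opposite strand and not at all on their own, 67 had a count in the table (94.4%), against 96.0% of 9088 genes with no covered exonic base. The median total over the 4 libraries was 9 counts for the 71 genes and 28 counts for the 9088. Of 322 genes wholly covered by exons of another gene on the same strand, 3 had a count. Cover on the same strand thus left almost no gene with counts, and cover on the opposite strand left most genes with counts. This comparison of overlapping genes was added after the values were seen.

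Cnx99A (FBgn0015622), on chromosome 3R from 29315254 to 29319644, encodes a calnexin, a membrane-bound chaperone of glycoproteins in the endoplasmic reticulum that Rh1 needs for its maturation. Of the 9 genes it has the largest intronic share, 36.3% of 4.39 kb. It had 991 and 1174 counts in the libraries labelled siTop3β and 1411 and 1349 in siControl, or 287.6 and 313.5 CPM in siTop3β against 327.6 and 386.0 CPM in siControl. Here too the siTop3β libraries were the lower ones and the groups did not overlap. Its log2 fold change came to -0.25 (SE 0.14, 95% interval from -0.53 to 0.04, edgeR-adjusted p = 0.656). The level in siTop3β was 84.8% of siControl for ninaA and 84.3% for Cnx99A, and both 95% intervals included equality. Rh1 itself, the gene ninaE, had 14833 and 16184 CPM in the libraries labelled siTop3β and 18200 and 17072 CPM in siControl, a log2 fold change of -0.19 (SE 0.17, edgeR-adjusted p = 0.847).

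rtp (FBgn0087005), also called retinophilin, encodes a protein with MORN repeats that binds the myosin NINAC in the rhabdomere. The gene lies on chromosome 3R from 5236092 to 5237315, and 197 of its bases overlap the opposite-strand gene Mms19, which had between 71 and 97 counts. It had the highest level of the 9 genes, with 1283 and 2364 counts in the libraries labelled siTop3β and 2260 and 1623 in siControl. In CPM these were 372.3 and 631.2 in siTop3β against 524.8 and 464.4 in siControl, so the siTop3β libraries held both the lowest and the highest value and differed from each other 1.70-fold. For rtp the log2 fold change was 0.02 (SE 0.22, 95% interval from -0.47 to 0.51, edgeR-adjusted p = 0.997). Without siTop3β replicate 2 it was -0.45, and without siTop3β replicate 1 it was 0.35. Each of these fits leaves a single library labelled siTop3β, so the direction for rtp depended on which of them was kept. The fit without siTop3β replicate 2 also called rtp lower. In the alternatives that kept all 4 libraries, its adjusted p (edgeR or DESeq2) was at least 0.984. Its partner ninaC had 5910 and 6862 CPM in the libraries labelled siTop3β and 5959 and 5789 CPM in siControl, a log2 fold change of 0.12 (SE 0.16, edgeR-adjusted p = 0.917).

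**Figure D2:**
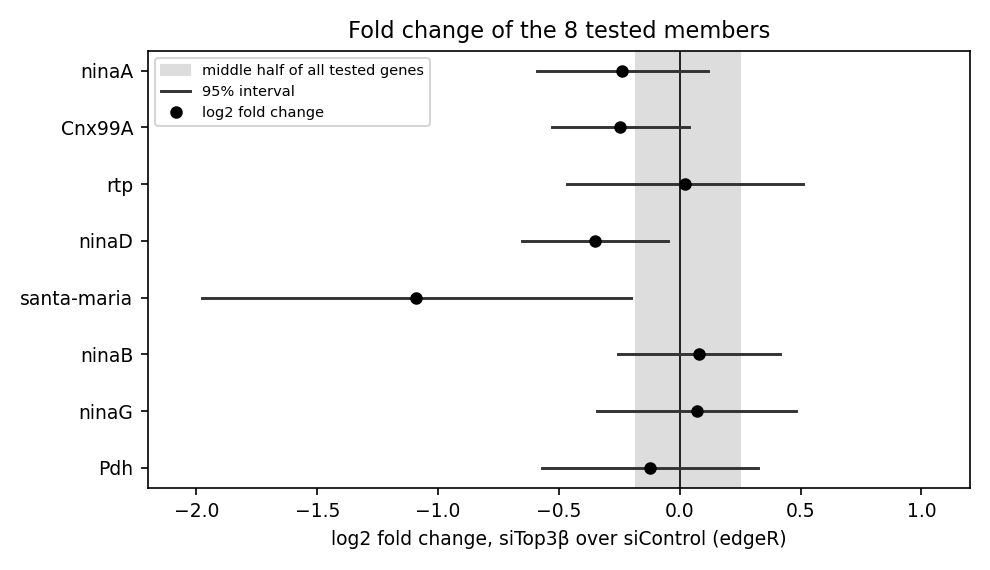
Log2 fold change of siTop3β over siControl (points) with its 95% interval (lines) for the 8 tested genes, and the interquartile range of all tested genes as a grey band. The intervals of ninaD and santa-maria lie below 0 before adjustment over all genes, and the other 6 include 0.

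Carotenoid uptake is carried out by class B scavenger receptors, relatives of mammalian CD36 and SR-BI. ninaD and santa-maria belong to this family, and both had their lower values in the libraries labelled siTop3β without passing the adjusted test. ninaD (FBgn0002939), known for carotenoid uptake in the gut, lies on chromosome 2L from 18081628 to 18083608. It had 684 and 878 counts in the libraries labelled siTop3β and 1348 and 833 in siControl. In CPM these were 198.5 and 234.4 in siTop3β against 313.0 and 238.4 in siControl, so siTop3β replicate 2 and siControl replicate 2 nearly met. The log2 fold change was -0.35 (SE 0.15, 95% interval from -0.65 to -0.05, unadjusted p = 0.0242, edgeR-adjusted p = 0.408), which puts the level between 63.7% and 96.6% of siControl. Without siTop3β replicate 2 the change was -0.52 with an adjusted p of 0.0204, and without siControl replicate 1 it was -0.16 with an adjusted p of 1.00. Over the 11 alternative fits, the lowest adjusted p of ninaD was 0.0204 and the highest 1.00. Without siTop3β replicate 2, 424 genes were called over the whole table, against 85 with all libraries.

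A gene known from the gut was thus among the more abundant of the 9 in photoreceptor nuclei, and its surroundings were examined for that reason, after the values were seen. ninaD begins 320 bp beyond the end of Arr1, on the same strand. Arr1 encodes an arrestin that binds light-activated rhodopsin, and it had 9154 and 13904 counts in the libraries labelled siTop3β and 16469 and 11141 in siControl. The counts of ninaD came to 7.47% and 6.31% of those of Arr1 in the libraries labelled siTop3β and to 8.19% and 7.48% in siControl. Per kilobase of exon these shares were 10.3% and 8.74% in siTop3β against 11.3% and 10.4% in siControl. Arr1 had a log2 fold change of -0.14 (SE 0.17, edgeR-adjusted p = 0.897), and without siTop3β replicate 2 it was the only wider pathway gene called.

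Of all genes in the table, 33 began within 500 bp downstream of a same-strand gene with a mean of at least 1000 CPM. Per kilobase, the downstream gene stood at a median of 6.38% of its upstream neighbour, and 9 pairs were above the 10.2% of ninaD and 23 below it. CG13305, which follows Arr2, stood at 25.7%, and Capa, a neuropeptide gene that follows trp, at 26.1%. Below ninaD were CG5697 after Calx at 6.38%, CG32228 after rdgC at 5.82% and CG15614 after Pkc53E at 5.27%. The highest ratios were those of AMPdeam after mamo, at 205.4%, and Cyp28d2 after Msp300, at 31.8%. These examples were chosen after their values were seen. Whether reads that run past the end of the upstream gene were counted in these genes was not tested.

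**Figure D3:**
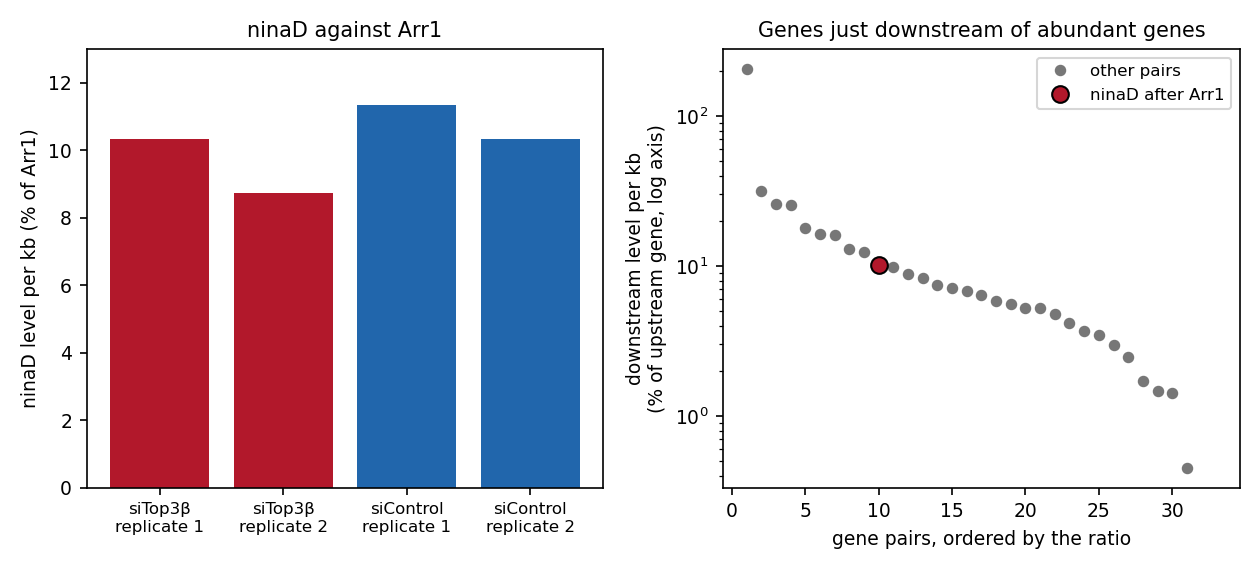
Left, the level of ninaD per kilobase as a percentage of that of Arr1 in each library (siTop3β in red, siControl in blue), from 8.74% to 11.3%. Right, the same ratio, averaged over the 4 libraries, for the gene pairs with an upstream gene of at least 1000 CPM (log axis; pairs whose downstream gene has no count are not drawn), with ninaD in red at 10.2%.

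santa-maria (FBgn0025697), known for carotenoid uptake in neurons and glia outside the retina, lies on chromosome 2L from 7445355 to 7451244. It had 19 and 10 counts in the libraries labelled siTop3β and 32 and 35 in siControl. In CPM these were 5.51 and 2.67 in siTop3β against 7.43 and 10.0 in siControl, so every siTop3β library was below every siControl library. The log2 fold change, -1.09, was the largest of the 8 tested members in size (SE 0.43, 95% interval from -1.98 to -0.20, unadjusted p = 0.0180, edgeR-adjusted p = 0.356). The level in siTop3β thus lay between 25.4% and 87.0% of siControl, a wide interval that goes with the low counts. Its log2 fold change stayed negative with each library left out in turn, from -1.68 to -0.69, and DESeq2 gave it no adjusted p. Of its exonic bases, 528 are shared with the opposite-strand gene CG5973, which had 30 and 23 counts in the libraries labelled siTop3β and 31 and 34 in siControl. Of the markers of other neurons, 0 of 5 were called, with a median log2 fold change of -0.38. For 4 of the 5, both siTop3β libraries were below both siControl libraries, an outcome seen in 19.0% of all tested genes. Of the 5 glial markers tested, 0 were called, the median was -0.11 and 1 had that outcome. The part of either list in the value of santa-maria was not tested.

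The enzymes that turn carotenoid into chromophore showed no difference between the groups beyond the spread of the libraries. ninaB (FBgn0002937), on chromosome 3R from 13700565 to 13703164, encodes the enzyme that cleaves carotenoids and isomerizes the product. It had 216 and 253 counts in the libraries labelled siTop3β and 293 and 192 in siControl, or 62.7 and 67.6 CPM in siTop3β against 68.0 and 54.9 CPM in siControl. The siTop3β libraries lay inside the range of the siControl libraries, and the log2 fold change was 0.08 (SE 0.16, 95% interval from -0.26 to 0.42, edgeR-adjusted p = 0.959). With each library left out in turn it ran from -0.081, without siControl replicate 2, to 0.22, without siControl replicate 1. At its start it shares 63 exonic bases with the opposite-strand gene f-cup, and at its end 81 with Adgf-D.

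ninaG (FBgn0037896), on chromosome 3R from 11419376 to 11421693, encodes an oxidoreductase needed to make 3-hydroxyretinal. It had 116 and 179 counts in the libraries labelled siTop3β and 187 and 119 in siControl. In CPM these were 33.7 and 47.8 in siTop3β against 43.4 and 34.1 in siControl, so that siControl lay inside the siTop3β range. This gave a log2 fold change of 0.07 (SE 0.20, 95% interval from -0.34 to 0.48, edgeR-adjusted p = 0.975), and with each library left out in turn it ran from -0.25, without siTop3β replicate 2, to 0.30, without siTop3β replicate 1. The 95% intervals put the level in siTop3β between 78.9% and 139.7% of siControl for ninaG and between 83.7% and 133.4% for ninaB.

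Pdh and pinta are known from the pigment cells that surround the photoreceptors, where released chromophore is recycled and retinoid is stored. Pdh (FBgn0011693), a retinol dehydrogenase of this visual cycle, lies on chromosome 3L from 16353233 to 16354297. It had 93 and 162 counts in the libraries labelled siTop3β and 147 and 150 in siControl, or 27.0 and 43.3 CPM in siTop3β against 34.1 and 42.9 CPM in siControl. siTop3β replicate 1 was the lowest of the 4 libraries, siTop3β replicate 2 was level with siControl replicate 2, and the groups overlapped. The log2 fold change was -0.12 (SE 0.22, 95% interval from -0.57 to 0.32, edgeR-adjusted p = 0.945), and it was 0.17 without siTop3β replicate 1. On the opposite strand, asRNA:CR45894, which has no row in the table, covers 355 of the exonic bases of Pdh and Tcs3 covers 54. Tcs3 had 8 and 8 counts in the libraries labelled siTop3β and 1 and 3 in siControl. Genes wholly covered on the opposite strand mostly had counts, as given under ninaA. Whether reads of these 2 genes entered the counts of Pdh was not tested.

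pinta (FBgn0038966), which encodes a retinoid-binding protein with a CRAL-TRIO domain, lies on chromosome 3R from 22423316 to 22424929. It had 8 and 2 counts in the libraries labelled siTop3β and 10 and 2 in siControl, and was the only member below the filter on low counts. In CPM these were 2.32 and 0.534 in siTop3β against 2.32 and 0.572 in siControl. Both libraries numbered 2 were under 3 counts, and a difference between the groups was not detectable at this depth. Per kilobase Pdh stood at 39.0 CPM and pinta at 1.07 CPM, although both are known from the same cells. Of the 7 pigment and cone cell markers, 5 were tested and 0 called. The log2 fold changes of these 5 ran from -0.83 to 0.87, with 3 below 0 and 2 above. Crys, a lens protein gene, was the lowest, with 13 and 5 counts in the libraries labelled siTop3β and 9 and 25 in siControl. The highest was bw, with 16 and 19 counts in siTop3β and 5 and 15 in siControl.

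Levels were compared between the 9 genes per kilobase of exon. rtp stood alone at the top with a mean of 519.0 ± 113.1 CPM per kb (SD over the 4 libraries), a level above 99.7% of the genes in the table. ninaD followed at 137.6 ± 26.9 and Cnx99A at 117.6 ± 14.9 CPM per kb, and their libraries overlapped, so their order is not settled. ninaA stood at 59.3 ± 7.29, Pdh at 39.0 ± 8.25, ninaB at 29.3 ± 2.81 and ninaG at 20.5 ± 3.62 CPM per kb, and of these neighbours only Pdh and ninaB overlapped. ninaG, the lowest of these, was still above 89.2% of the genes in the table. santa-maria at 1.15 ± 0.557 and pinta at 1.07 ± 0.762 CPM per kb overlapped each other and were above 45.1% and 44.1% of the genes. For comparison, ninaE had a mean of 10436 CPM per kb. These are levels of nuclear RNA, and intronic reads may or may not have been counted.

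**Figure D4:**
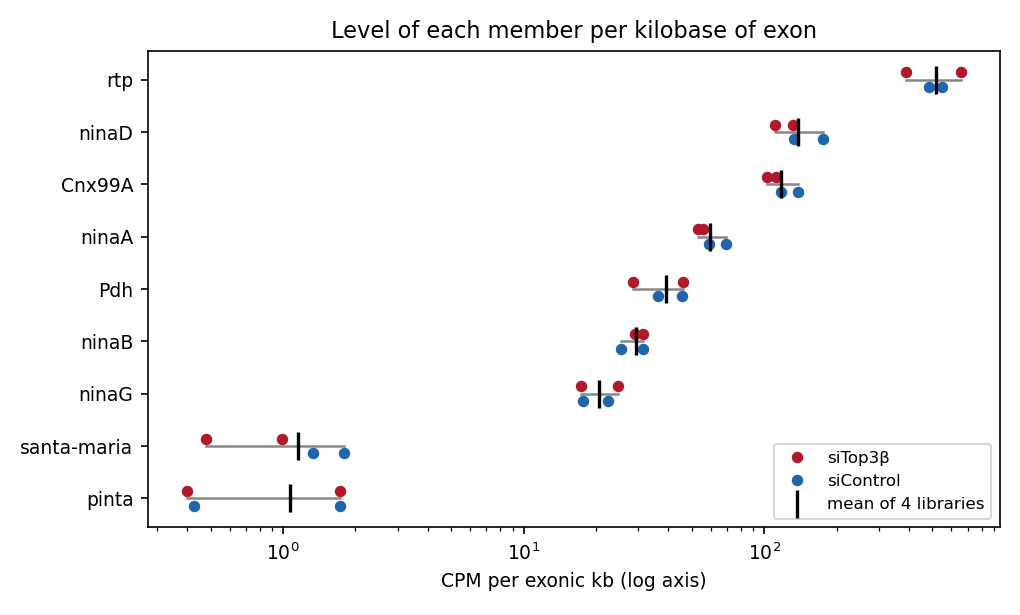
Level of each gene in CPM per kilobase of exon (log axis), with siTop3β libraries (red) drawn above siControl libraries (blue), the range of all 4 libraries as a grey line and their mean as a black tick. rtp is highest at 519.0, and santa-maria and pinta are lowest at 1.15 and 1.07.

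The other genes of the pathway were read from 7 lists that hold 67 genes, all of them in the table. Of these, 58 passed the filter, and 0 were higher and 0 lower after adjustment in edgeR, where 0.384% of all tested genes were higher and 0.825% lower. At an unadjusted p under 0.05 there were 3 of the 58, all lower, beside 5.43% of all tested genes lower at that level and 9.09% in either direction. Their names were noted after their values were seen. They were alpha-Man-Ia and alpha-Man-IIb, mannosidases that trim N-glycans, with log2 fold changes of -0.35 (edgeR-adjusted p = 0.340) and -0.28 (adjusted p = 0.546), and Tsp42Ej, a lysosomal tetraspanin involved in rhodopsin degradation, with -0.37 (adjusted p = 0.426). The median over the 58 was -0.04, with 33 below 0 and 25 above.

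Among 10 tested genes for folding in the endoplasmic reticulum, the median log2 fold change was 0.03, with values from -0.24 to 0.49. The most abundant per kilobase was Hsc70-3, the Hsp70 chaperone of that compartment, at 99.8 and 99.3 CPM in the libraries labelled siTop3β and 98.9 and 117.3 CPM in siControl. Xport-A, a chaperone of Rh1 and of the channel TRP, had 0 counts in every library, and all 949 of its exonic bases also belong to Xport-B on the same strand, so its row carries no information on its level. The 9 genes of N-glycan processing had a median of -0.08, and the highest of them per kilobase was fdl, a hexosaminidase, with 231.0 and 220.0 CPM in siTop3β against 233.6 and 267.8 CPM in siControl. The 9 genes of transport to the rhabdomere had a median of -0.01. didum, the myosin V that carries rhodopsin vesicles, had 635.0 and 648.0 CPM in the libraries labelled siTop3β and 648.3 and 681.9 CPM in siControl, a log2 fold change of -0.05 (95% interval from -0.33 to 0.23).

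The 9 genes of rhodopsin endocytosis and turnover had a median of -0.17. Their most abundant gene per kilobase, Arr2, the main arrestin of the eye, had 5257 and 5353 CPM in the libraries labelled siTop3β and 5859 and 6352 CPM in siControl, a log2 fold change of -0.20 (SE 0.16, edgeR-adjusted p = 0.800). Relatives of the members by sequence family were not called either. Of 13 other cyclophilins, 9 were tested, with a median of -0.06, and Moca-cyp had 148.9 and 194.4 CPM in siTop3β against 140.5 and 151.1 CPM in siControl. Of 6 other class B scavenger receptors, 5 were tested, with a median of -0.08, and crq, known for the uptake of cell corpses, had 100.7 and 128.7 CPM in siTop3β against 123.1 and 109.0 CPM in siControl. The 7 rhodopsins had a median of -0.12, from -0.37 to 0.33.

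**Figure D5:**
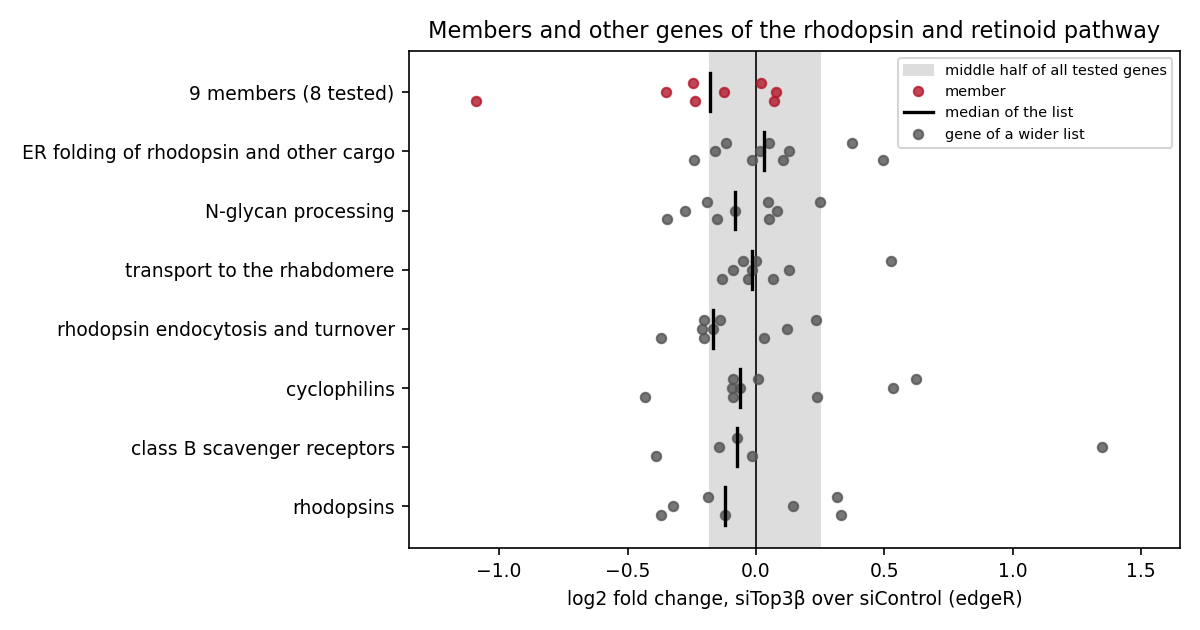
Log2 fold change of siTop3β over siControl for the 8 tested members (red) and for the tested genes of the 7 wider lists (grey), with each list's median as a black line and the interquartile range of all tested genes as a grey band. Members run from -1.09 to 0.08 around a median of -0.18, and the wider lists have medians between -0.17 and 0.03.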

How the data were processed

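Reads were processed by the authors with Trimmomatic and STAR on dm6, and the deposited values are raw counts per gene, 1 column for each of 4 libraries. The counting tool and annotation, and its treatment of strand and introns, are not given in the sources used here. The counts were tested with TMM scaling, the default expression filter and the robust quasi-likelihood test of edgeR 4.0.16 (R 4.3.3), without a block. P-values were adjusted by the Benjamini-Hochberg method over all 7029 tested genes, with a threshold of 0.05 and 95% intervals from the standard error and the fit's degrees of freedom. The study used DESeq2, run here (1.42.0) as an alternative. Normalization, filter, block and single libraries were varied. Coordinates and exonic lengths came from Ensembl release 115 (dm6), which held 13866 of the 13929 identifiers and all members. The test was also run on simulated counts drawn with the same dispersion for all genes. No result here rests on that run. The members, lists and markers were chosen with earlier results of these data known. All 9 members are named, as are wider-list genes past the threshold and the most abundant gene per kilobase of each list. Others were named after their values were seen. Floors of 3 counts cover counting error only. No sequences were used.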

Additional observations from a re-analysis of the deposited data

How the results depend on the processing

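With 2 libraries a group, leaving out a single library could change calls and directions. The only calls among members and wider pathway genes, all lower, came without siTop3β replicate 2 (ninaD, rtp and Arr1). That fit leaves a single library labelled siTop3β, and calls rose over the whole table in it as well. The number of members and of wider pathway genes called higher was 0 under every alternative. Leaving out single libraries turned the direction of ninaB (log2 fold change -0.081 to 0.22), ninaG (-0.25 to 0.30), Pdh (-0.55 to 0.17) and rtp (-0.45 to 0.35). The value of rtp was -0.0055 with no filter and -0.022 with the DESeq2 Wald test. Libraries with the same number did not deviate together (correlation -0.12). The replicate block gave -0.025 for rtp, 0 members and 60 genes over the whole table, and pairing the libraries crosswise, an alternative added with the data in view, gave -0.022 for rtp, 0 members and 211 genes. Of 88 member fold changes under alternatives, 75 kept their direction and did not cross the threshold, and 12 turned. The 75 include that of santa-maria with DESeq2, which gave it no adjusted p. Among the 12 was that of rtp without siTop3β replicate 2. That of ninaD in the same fit kept its direction and passed the threshold. Per kilobase of whole span, ninaB stood at 24.3 and Cnx99A at 74.9 CPM, and the order of the 9 genes was the same. Over all genes the calls numbered 85, and 138 with at least 10 counts in every library, 52 with DESeq2, 131 and 424 without siTop3β replicates 1 and 2, and 52 without siControl replicate 1. With no filter and with DESeq2, where 13144 genes were fitted, the median log2 fold change over all genes was 0.21 and 0.19, against 0.02. The causes were not tested.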

Other observations

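One gene of the marker lists was called. apolpp, which encodes the apolipoprotein of lipophorin, the carrier of lipids in the hemolymph, and which stood in the fat body list, had 550.5 and 635.2 CPM in the libraries labelled siTop3β and 884.5 and 924.6 CPM in siControl. This made a log2 fold change of -0.61 (SE 0.14, edgeR-adjusted p = 0.0230). The other fat body genes of the list were far lower, with Lsp2 at 21 and 17 counts in the libraries labelled siTop3β and 15 and 27 in siControl. Yp1 had 48 and 1 counts in siTop3β against 0 and 2 in siControl. The 48 counts were in siTop3β replicate 1, the library with counts on the most genes (12922).

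Among the relatives of ninaD and santa-maria, Snmp1, a pheromone-sensing membrane protein, had 13 and 11 counts in the libraries labelled siTop3β and 4 and 6 in siControl. Its log2 fold change of 1.35 (SE 0.76, edgeR-adjusted p = 0.657) was the largest in size of the 58 tested wider pathway genes and was chosen after its value was seen.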
